A study of Mus musculus with 9 samples.

Results

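Sterol and fatty acid synthesis was followed through 39 genes whose products make, control or move sterols and fatty acids, out of 24228 gene rows in the table. The members were chosen by name, as genes linked to the SREBP transcription factors, and all 39 had a row. RNA was sequenced from fully grown oocytes of C57BL/6 mice at the germinal vesicle stage, the prophase arrest that precedes meiotic maturation. The groups were wild type (WT) and 2 oocyte-specific knockouts of Mtor, made with Cre recombinase driven by the Gdf9 promoter (MG) or by the Zp3 promoter (MZ). Each had 3 libraries, and all the mice had received 5 IU of the gonadotropin PMSG 46 h before collection. The age is 23 days in the series design but 6 months in the sample labels. The labels do not say how many oocytes or animals a library holds, so a p-value here reflects only the scatter of these 9 libraries, part of which may be technical.

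Cells build cholesterol from acetyl-CoA through mevalonate, isoprenoid units, squalene and a series of sterol intermediates, and they build fatty acids from the same acetyl-CoA through malonyl-CoA. The SREBP factors, products of Srebf1 and Srebf2, switch on most of these enzymes. Scap escorts them from the endoplasmic reticulum to be cleaved, Insig proteins hold them back when sterols are plentiful, and the mTOR complex that responds to nutrients is known to promote SREBP activity. In the mouse follicle the oocyte is known to make cholesterol poorly and to depend on the cumulus cells around it.

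SREBP factors bind sterol regulatory elements and E-boxes, and the factor NF-Y binds the letters CCAAT beside many of these elements. Promoters of 32 members were found in the RefSeq table (GRCm38.p6), each covering 250 bases before and 50 bases after a start of the gene. The sterol element core TCACCCCA, read on both strands, was present for 2 of the 32 genes (6.25%, Hmgcs1 and Srebf2), against 1.65% of tested genes with a promoter entry. The E-box CACGTG, which reads the same on both strands, was present for 6 of the 32 (18.8%, against 11.3% of tested genes), and CCAAT for 26 of the 32 (81.2%, against 43.8%). The 32 include genes that were not tested, such as Srebf2. Of all 27025 genes with a promoter entry, 1.77%, 8.09% and 41.1% held these motifs in the same order. Counted by single promoter, the shares were 4.88%, 17.1% and 65.9% of the members' 41. Of all 32851 promoters they were 1.56%, 7.15% and 37.4%. These counts describe letters in a window, not sites at which a factor binds.

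The Stard5 promoter is shown because Stard5 is the member that passed the test of MG against WT. It lies at chr7:83631767-83632066 on the plus strand, and the capitals mark its 2 CCAAT matches. The Hmgcs1 promoter, at chr13:119690101-119690400 on the plus strand, has the sterol element core in capitals and is shown because Hmgcs1 is the most abundant enzyme of the mevalonate arm here.
Stard5: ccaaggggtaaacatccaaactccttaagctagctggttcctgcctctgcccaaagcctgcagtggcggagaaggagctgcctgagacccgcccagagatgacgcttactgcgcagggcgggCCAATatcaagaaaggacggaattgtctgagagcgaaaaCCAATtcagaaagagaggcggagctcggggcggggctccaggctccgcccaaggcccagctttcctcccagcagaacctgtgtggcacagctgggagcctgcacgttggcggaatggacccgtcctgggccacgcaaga
Hmgcs1: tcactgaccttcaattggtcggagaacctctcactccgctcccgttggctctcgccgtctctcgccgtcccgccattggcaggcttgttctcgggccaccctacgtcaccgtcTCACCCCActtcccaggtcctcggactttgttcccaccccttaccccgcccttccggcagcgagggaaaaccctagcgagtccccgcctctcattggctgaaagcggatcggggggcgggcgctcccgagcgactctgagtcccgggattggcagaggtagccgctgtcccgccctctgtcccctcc

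Windows of 54 bases around the E-box, in capitals, are given for 5 genes whose levels are described below. They are Sc5d (chr9:42264369-42264422, minus strand), Elovl5 (chr9:77917180-77917233, plus strand), Scap (chr9:110333292-110333345, plus strand), Hsd17b7 (chr1:169969319-169969372, minus strand) and Insig1 (chr5:28071287-28071340, plus strand). Relative to WT, the first 3 of these genes had lower and the other two had higher mean levels in MG when the 3-library means are compared. The sixth gene with an E-box, Dhcr7, is not shown.
Sc5d: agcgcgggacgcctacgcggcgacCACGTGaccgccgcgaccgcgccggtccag
Elovl5: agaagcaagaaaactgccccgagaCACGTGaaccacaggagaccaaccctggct
Scap: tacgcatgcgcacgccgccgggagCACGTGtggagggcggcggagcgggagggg
Hsd17b7: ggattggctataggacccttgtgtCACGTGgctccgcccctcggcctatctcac
Insig1: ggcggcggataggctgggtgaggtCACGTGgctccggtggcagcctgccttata

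Values are FPKM, fragments per kilobase of transcript, scaled to sequencing depth, as the authors deposited them. From the steps between low values, the libraries were put at 583400 to 1048400 fragments, and 1 fragment in a 1 kb transcript was worth 1.31 to 2.36 FPKM. The FPKM of a library summed to 584503 to 718684 in WT, 657851 to 677618 in MZ and 428329 to 554305 in MG, so all 3 MG sums lay lowest. Mtor had 3.25, 3.33 and 2.95 FPKM in WT 1 to 3, 5.25, 6.00 and 4.64 in MG 1 to 3, with 6.55, 4.67 and 4.39 in MZ 1 to 3. Every MG and MZ value of Mtor lay above every WT value, and neither change against WT passed (limma adjusted p = 0.36 and 0.80). A value for the whole gene can include reads from exons outside a deleted part, so these values do not check the deletion. All 12 oocyte markers had a mean of at least 1 FPKM. Of 16 granulosa and cumulus markers 5 did, led by Cyp19a1 at a mean of 16.8 FPKM. Foxl2 and Lhcgr were listed at 0 in all 9 libraries. The 16 markers summed to 20.3 to 34.1 FPKM in WT, 22.9 to 40.5 in MG and 23.95 to 28.3 in MZ. Theca and stroma markers summed to 15.1 to 22.1 FPKM in WT, 17.6 to 19.9 in MG and 10.4 to 38.9 in MZ. Endothelial markers summed to 15.2 to 23.9 FPKM in WT, 18.1 to 20.2 in MG and 8.55 to 15.4 in MZ. Erythroid markers summed to 2.19 to 18.3 FPKM in WT, 3.40 to 8.55 in MG and 0 to 5.99 in MZ. The oocyte markers summed to 22394 to 27751 FPKM in WT, 11819 to 27196 in MG and 28651 to 29611 in MZ. Leukocyte markers, led by Lyz2, ranged more widely in both knockouts (26.2 to 140.3 FPKM in MG and 19.6 to 170.2 in MZ) than in WT (44.4 to 53.4). The part of these other cell types in the results was not tested.

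The oocytes held a steep order of levels among the 39 genes. Mean FPKM over the 9 libraries was at least 50 for 6 genes, 5 to 50 for 8, 1 to 5 for 12 and under 1 for 13. The leading 6 were Fdft1 (208.1 FPKM), Insig1 (132), Hmgcs1 (117.6), Sc5d (77.7), Elovl5 (77.0) and Elovl1 (51.2), and they made up 79.4% to 85.6% of the members' summed FPKM in each library. All 39 together were 0.133 ± 0.0051% of the FPKM sum in WT, 0.135 ± 0.023% in MG and 0.131 ± 0.0057% in MZ (SD, n = 3 each). That share overlapped between the groups, and its highest value, 0.162%, was in MG 3. Of the 39, 21 were above 0 in all 9 libraries, while Fads2, a front-end fatty acid desaturase, was listed at 0 in all of them.

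**Figure D1:**
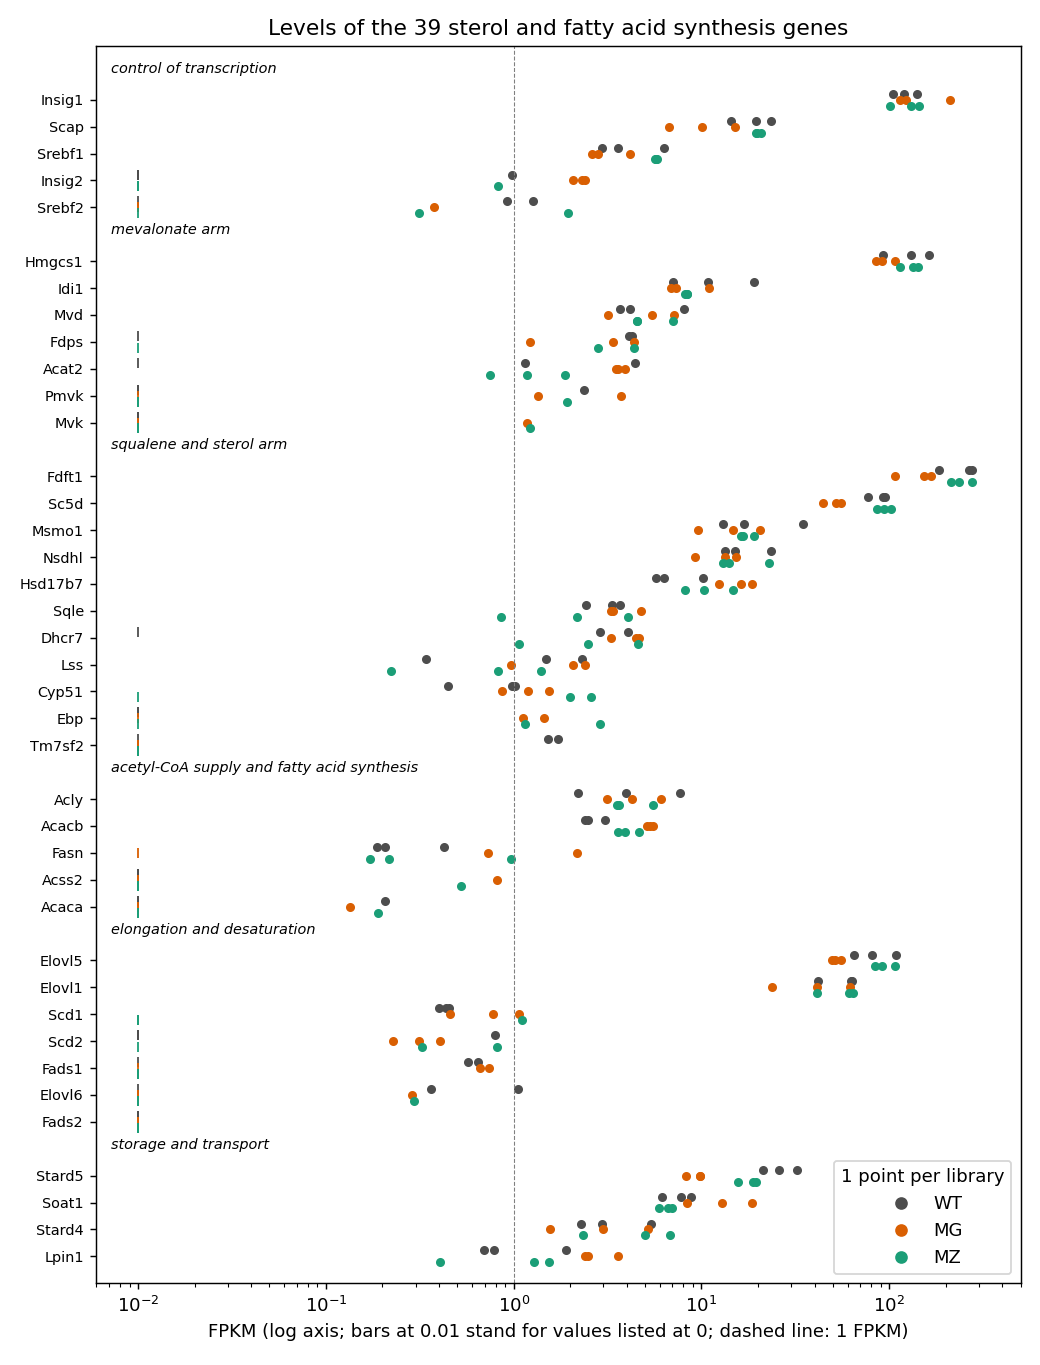
FPKM of all 39 genes in each of the 9 libraries on a log axis, grouped by role and ordered by mean level, with WT in grey, MG in orange and MZ in green. Short bars at the left stand for values listed at 0, and the 6 genes with a mean of at least 50 FPKM stand apart from the rest.

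The level filter (FPKM of at least 1 in at least 3 libraries) kept 28 of the 39 members and 10801 genes in all, which were tested with limma on log2(FPKM + 1). A gene passed with a Benjamini-Hochberg adjusted p under 0.05 over all tested genes. Depth limits many of the 28: for 14 of them fewer than 30 fragments lie behind the 3 WT libraries together. A gene that did not pass is therefore not shown to be unchanged. In bulk RNA, less RNA per oocyte and fewer contributing cells cannot be told apart.

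In MG against WT, which asks how the earlier-acting Gdf9-Cre knockout altered these genes, Stard5 fell and was the 1 member of 28 that passed. Over all tested genes 37 passed, which is 0.343%. The split of those was 20 higher (0.185%) and 17 lower (0.157%), against 61 and 5 with FPKM sums made equal across libraries, 16 and 5 with quantile normalization and 20 and 10 with upper quartile scaling. Equal sums moved the median log2 change of all tested genes from 0.04 to 0.36. The 3 MG and 3 WT values did not overlap for 8 of the 28 members, against 21.5% of all tested genes. Of the 8, 4 were higher in MG (Acacb, Hsd17b7, Insig2 and Lpin1, against 11.6% of all tested genes). The other 4 were lower (Elovl5, Fdft1, Sc5d and Stard5, against 9.89%). Insig2 reached 1 FPKM in the 3 MG libraries alone, so the level filter fixed its separation in advance. Of the 28, 8 had an unadjusted limma p under 0.05, against 17.7%. The median log2 change of the 28 was 0.13, with 15 above 0 and 13 below, beside a median of 0.04 for all tested genes. The members' median changed sign with the settings, from -0.41 with a filter of 5 FPKM to 0.42 with equal FPKM sums.

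In MZ against WT, the same question for Zp3-Cre, 0 of the 28 members passed by limma, and 0 had an unadjusted p under 0.05, where 0.037% (0.0278% higher and 0.00926% lower) and 6.3% of all tested genes did. The groups did not overlap for 2 members, against 12.2% of genes: Acacb was higher (5.67% of genes) and Stard5 lower (6.52%). The median log2 change of the members was 0.003, and that of all tested genes 0.009. Both comparisons use the same 3 WT libraries.

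MG was set against MZ to test whether the knockouts differ. By limma 0 of the 28 members passed, against 0.13% of all tested genes (0.0741% higher and 0.0556% lower), and 8 had an unadjusted p under 0.05, against 17.6%. No overlap was seen for 12 of the 28, against 25.2%. Among the 12, Elovl5, Fdft1, Hmgcs1, Sc5d, Scap, Srebf1 and Stard5 were lower in MG (12.3% of all tested genes). Acacb, Acat2, Insig2, Lpin1 and Soat1 were higher (12.8%), and the separation of Insig2 was again fixed in advance by the level filter. Without WT 1, a library outside this comparison that only adds to the estimate of the spread, 2 members passed, Sc5d and Elovl5 (limma adjusted p = 0.044 and 0.047). The count of all genes passing also moved, from 0 to 214 over the 9 fits without 1 library, against 14 as reported.

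**Figure D2:**
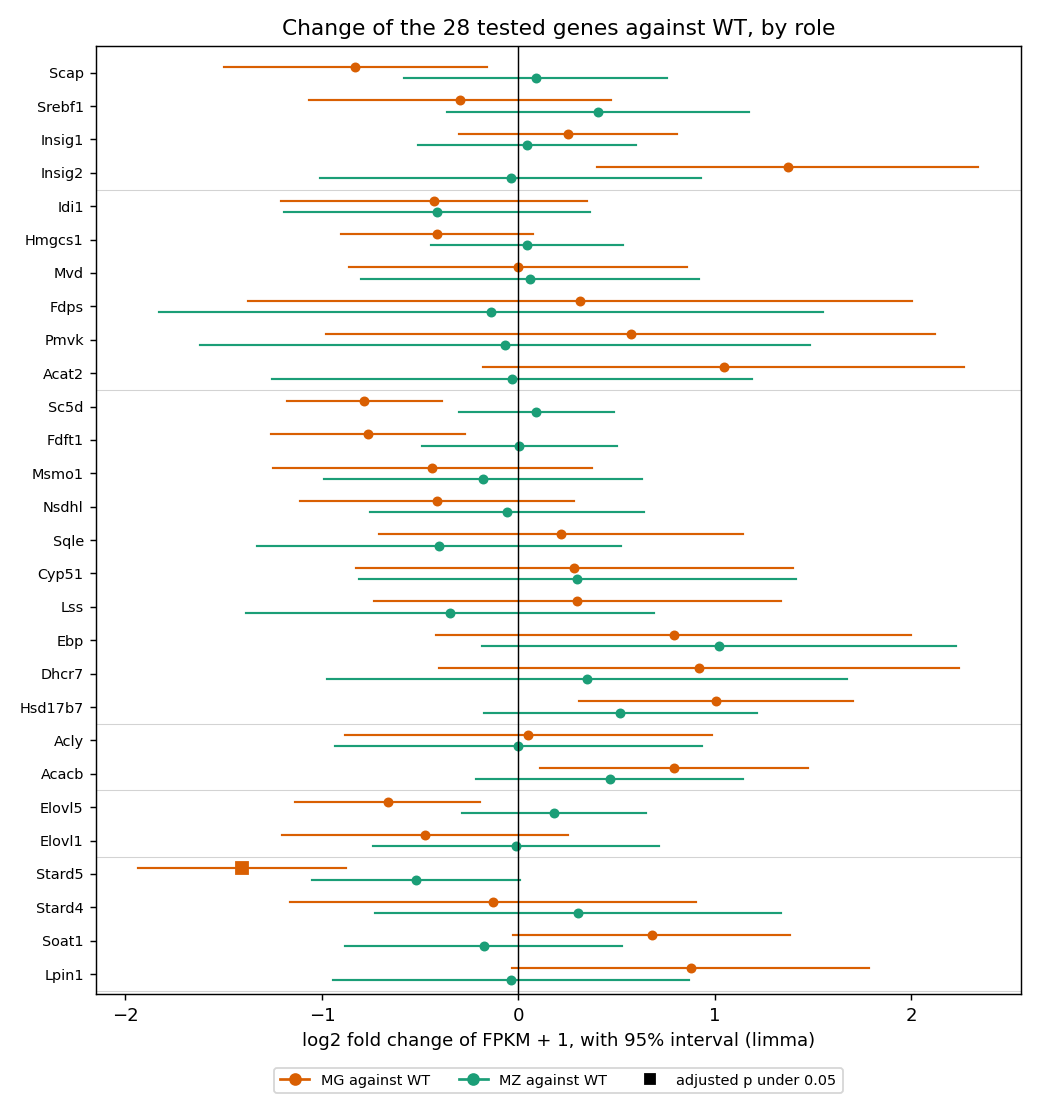
Log2 fold change of FPKM + 1 against WT for the 28 tested genes, with 95% limma intervals, MG in orange and MZ in green, in blocks by role from the control genes at the top to storage and transport at the bottom. The single square, Stard5 in MG at -1.41, marks the only adjusted p under 0.05, and all 28 MZ intervals include 0.

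Control genes came first in the pathway. Insig1 encodes a retention protein of the SREBP factors and was the most abundant of them. Its values were 139.9, 104.4 and 119.4 FPKM in WT 1 to 3, 122.5, 113.9 and 211.8 in MG 1 to 3, with 101.5, 143.8 and 131 in MZ 1 to 3. MG 3 stood above all other libraries and the remaining 8 overlapped. The log2 change for MG was 0.25 ± 0.25 (SE, limma adjusted p = 0.65) and turned to -0.03 without MG 3. It was 0.64 with equal FPKM sums and 0.63 with quantile normalization, neither of which passed.

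Scap, the sterol-sensing escort of the SREBP precursors, had 23.4, 19.5 and 14.4 FPKM in WT, 15.1, 10.0 and 6.68 in MG, with 20.7, 19.5 and 19.9 in MZ. The MG values lay below every MZ value, while the highest MG value exceeded the lowest WT value. The log2 change was -0.83 ± 0.30 for MG against WT (SE, limma adjusted p = 0.20) and -0.92 ± 0.30 for MG against MZ (adjusted p = 0.15 by limma). They were -0.47 and -0.52 with equal FPKM sums. For MZ against WT it was 0.09, with a 95% interval of -0.58 to 0.76. In the authors' deposited table, computed by Cuffdiff, 446 of 24228 genes (1.84%) have a q-value under 0.05 for WT and MG. For MG and MZ 977 do (4.03%). The p-value is at its upper limit for 20711 and 20541 of the 24228 genes, which can stand for no test. Without those genes both shares are higher. In that table Scap has a q-value of 0.033 for WT and MG and 0.0041 for MG and MZ. Of the 39 members, 4 have a q-value under 0.05 for WT and MG (Elovl5, Sc5d, Scap and Stard5). For MG and MZ 5 do, with Fdft1 added, and all 5 have lower means in MG. Hmgcs1, Insig1 and Elovl1 have q-values of 0.18, 0.43 and 0.44 for WT and MG. For MG and MZ theirs are 0.058, 0.40 and 0.40. The p-value is at its upper limit for 30 and 29 members, among them Hsd17b7, Insig2, Acacb and Lpin1, which have higher means in MG.

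Insig2, the second retention protein, had 2.06, 2.39 and 2.31 FPKM in MG. The table lists it at 0, 0.98 and 0 for WT and at 0, 0 and 0.82 for MZ. All 3 MG values lay above the rest, but they rest on about 11 fragments, against 1 in WT and 1 in MZ. The gene entered the test through its 3 MG values alone, so a difference was built into its selection, and it did not pass (limma adjusted p = 0.16 against WT and 0.13 against MZ).

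Srebf1, the factor gene tied mainly to fatty acid synthesis, had 6.30, 2.96 and 3.58 FPKM in WT, 4.16, 2.81 and 2.62 in MG, with 5.75, 5.69 and 5.81 in MZ. MG and MZ did not overlap, whereas WT spanned both. Its log2 change for MG against WT was -0.30 (limma adjusted p = 0.70) and was 0.01 with equal FPKM sums and -0.48 with quantile normalization. Its locus overlaps Rai1. Srebf2, the factor gene tied mainly to sterol synthesis, was lower still, with 1.26, 0.93 and 0 FPKM in WT, 0, 0.38 and 0 in MG, with 0, 0.31 and 1.94 in MZ, and was not tested.

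The mevalonate arm was led by Hmgcs1, the cytosolic HMG-CoA synthase whose promoter is printed above. It had 163.6, 130.3 and 92.2 FPKM in WT, 84.7, 91.5 and 106.7 in MG, with 142.4, 114 and 133.2 in MZ. MG lay below MZ throughout but overlapped WT 3. Its log2 change was -0.41 ± 0.22 for MG against WT (SE, limma adjusted p = 0.37) and -0.46 ± 0.22 for MG against MZ (adjusted p = 0.31 by limma). With equal FPKM sums both were about 0, at -0.03 each, and with quantile normalization they were -0.14 and -0.20.

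The next enzymes were more than 10 times less abundant. Idi1, the isopentenyl diphosphate isomerase, had group means of 12.3 ± 6.20 FPKM in WT, 8.38 ± 2.21 in MG and 8.31 ± 0.14 in MZ (SD, n = 3 each). Mvd, which decarboxylates mevalonate diphosphate, had 5.31, 5.25 and 5.39 FPKM in the same order. Fdps, the farnesyl diphosphate synthase, had 2.81, 2.99 and 2.38, with 1 WT and 1 MZ library listed at 0. Acat2, the cytosolic acetoacetyl-CoA thiolase, had 1.86, 3.68 and 1.26 FPKM. The 3 MG values spanned 3.51 to 3.93, within the WT range of 0 to 4.44. About 6 fragments lie behind the WT values of Acat2, 15 behind MG and 4 behind MZ. The kinases were at the limit of detection: Pmvk was listed at 0 in 5 libraries and Mvk in 7.

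The squalene and sterol arm held the most abundant gene of the 39. Fdft1, squalene synthase, commits farnesyl units to sterols and had 265.9, 184.5 and 275.2 FPKM in WT, 166.7, 152.6 and 106.9 in MG, with 211.9, 274.3 and 234.7 in MZ. Every MG value lay below every WT and MZ value, and MG 3 was the lowest. The log2 change was -0.77 ± 0.22 against WT (SE, limma adjusted p = 0.13) and -0.77 ± 0.22 against MZ (adjusted p = 0.11 by limma). With equal FPKM sums these were -0.38 and -0.34, and with quantile normalization -0.44 each. In the authors' deposited table Fdft1 has q-values of 0.055 for WT and MG and 0.0096 for MG and MZ. Its locus overlaps Ctsb, so some reads may be assigned to either gene.

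Sc5d, the desaturase that acts late in sterol synthesis, had 92.5, 77.0 and 95.5 FPKM in WT, 52.4, 44.6 and 55.6 in MG, with 94.2, 101.6 and 86.0 in MZ. The groups MG and WT were parted by a gap of more than 20 FPKM, and WT and MZ overlapped. The log2 change was -0.78 ± 0.18 for MG against WT (SE, limma adjusted p = 0.083) and -0.88 ± 0.18 for MG against MZ (adjusted p = 0.073 by limma), so neither passed. Equal FPKM sums gave -0.40 and -0.45. In the authors' deposited table its q-values are 0.020 and 0.00064. For MZ against WT the change was 0.09, with a 95% interval of -0.30 to 0.49.

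Hsd17b7, the ketosterol reductase of the same arm, had 6.33, 10.2 and 5.75 FPKM in WT, 18.5, 12.4 and 16.1 in MG, with 10.3, 14.8 and 8.17 in MZ. All MG values were above all WT values, and MZ overlapped both. The log2 change for MG against WT was 1.01 ± 0.32 (SE, limma adjusted p = 0.15), resting on about 125 fragments in MG and 47 in WT.

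With Sc5d lowest and Hsd17b7 highest in MG by group mean, their ratio within a library, which no scaling of whole libraries can alter, was also taken. The ratios were chosen after the values were seen and have no test. Hsd17b7 over Sc5d was 0.279 to 0.354 in MG, 0.060 to 0.132 in WT and 0.095 to 0.145 in MZ. Insig1 over Sc5d was 2.34 to 3.81 in MG, 1.25 to 1.51 in WT and 1.08 to 1.52 in MZ. In both ratios the MG libraries stood above the other 6, and WT and MZ overlapped. Both are taken over Sc5d, which was itself lower in all MG libraries. For Hsd17b7 over Sc5d the separation from WT followed from the choice, since neither gene overlapped between MG and WT. Insig1 over Hmgcs1, also taken, was 1.24 to 1.99 in MG, 0.80 to 1.30 in WT and 0.71 to 1.26 in MZ. For that ratio MG overlapped WT and MZ.

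**Figure D3:**
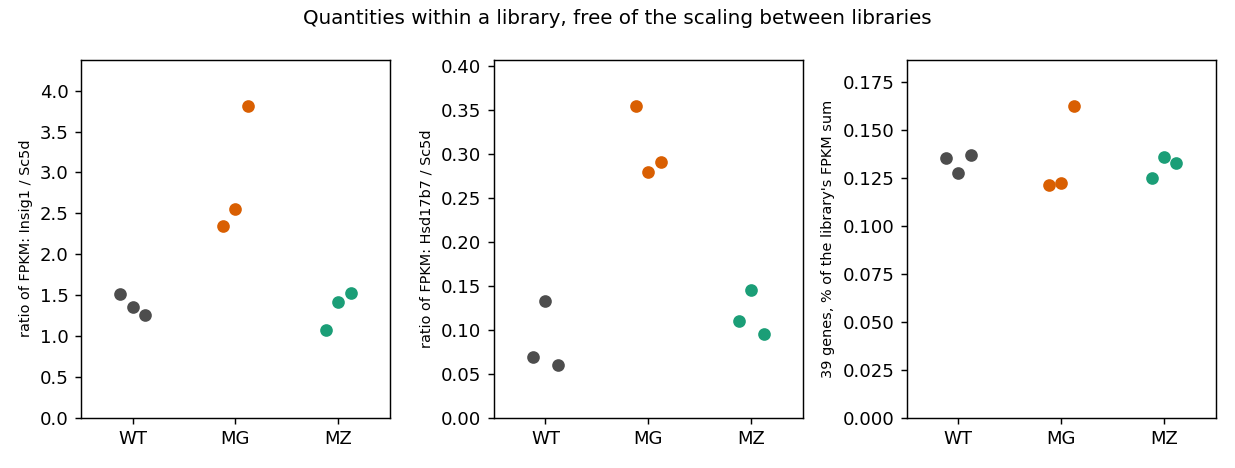
Ratios of FPKM within each library for Insig1 over Sc5d and Hsd17b7 over Sc5d, and the summed FPKM of the 39 genes as a percentage of the library's FPKM sum, with 1 point per library. Both ratios are higher in all 3 MG libraries than in any WT or MZ library, while the summed share overlaps, with MG 3 highest at 0.162%. The ratios were chosen after the values were seen, which fixed the separation of Hsd17b7 over Sc5d from WT.

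The other sterol enzymes showed wider spread. Msmo1, the sterol methyl oxidase, had 21.6 ± 11.7 FPKM in WT, 14.97 ± 5.52 in MG and 17.4 ± 1.52 in MZ, and Nsdhl, the decarboxylating dehydrogenase, 17.3 ± 5.39, 12.6 ± 3.06 and 16.6 ± 5.43 (SD, n = 3 each). Sqle, the squalene epoxidase, had means of 3.14, 3.81 and 2.37 FPKM. Dhcr7, the last reductase of one route to cholesterol, had 2.31, 4.14 and 2.72. Lss, lanosterol synthase, and Cyp51, lanosterol demethylase, stayed at means between 0.81 and 1.81 FPKM in every group. Ebp, the sterol isomerase, was listed at 0 in all WT libraries and in 2 others, and Tm7sf2, a sterol reductase, in all but WT 1 (1.52 FPKM) and WT 3 (1.72 FPKM).

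Fatty acid synthesis proper was barely represented. Acaca and Fasn, the cytosolic acetyl-CoA carboxylase and the fatty acid synthase, had means over the 9 libraries of 0.059 and 0.56 FPKM, and only Fasn in MG 2 (2.17 FPKM) exceeded 1 among their 18 values. The mitochondria-associated carboxylase Acacb was above Acaca in all 9 libraries, with 3.07, 2.41 and 2.49 FPKM in WT, 5.32, 5.50 and 5.13 in MG, with 3.58, 3.92 and 4.66 in MZ. The 3 groups did not overlap, in the order WT, MZ, MG, although neither change passed. Acly, which makes cytosolic acetyl-CoA from citrate, had means of 4.62, 4.49 and 4.25 FPKM in WT, MG and MZ, and Acss2, which makes it from acetate, was listed at 0 in 7 libraries.

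Elovl5 and Elovl1 were abundant, while Elovl6 and the desaturases were at the limit of detection. Elovl5, an elongase of polyunsaturated fatty acids, had 109, 64.5 and 80.8 FPKM in WT, 51.2, 55.1 and 49.4 in MG, with 91.8, 107.3 and 84.3 in MZ. The MG values were close together and below all others, and WT and MZ overlapped. The log2 change was -0.67 ± 0.21 against WT (SE, limma adjusted p = 0.16) and -0.85 ± 0.21 against MZ (adjusted p = 0.085 by limma). Equal FPKM sums gave -0.28 and -0.42. In the authors' deposited table the q-values are 0.031 and 0.00064.

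Elovl1, an elongase of very long saturated chains, had 62.7, 41.7 and 63.3 FPKM in WT, 61.5, 41.2 and 23.7 in MG, with 61.3, 41.4 and 64.0 in MZ. All groups overlapped, MG 3 was lowest, and the locus overlaps Cdc20. Scd1, Scd2, Fads1 and Elovl6 had means over the 9 libraries of 0.22 to 0.52 FPKM. Of the 7 genes of this role, 2 could be tested.

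Stard5, a START-domain lipid transfer protein of the storage and transport group, had 32.2, 21.4 and 26.0 FPKM in WT 1 to 3, 9.80, 9.84 and 8.23 in MG 1 to 3, with 15.7, 19.5 and 18.8 in MZ 1 to 3. The 3 groups did not overlap and stood in the order WT, MZ, MG. About 104 fragments lie behind the WT values, 45 behind MG and 84 behind MZ. In MG against WT Stard5 fell by 1.41 on the log2 scale (SE 0.24, limma adjusted p = 0.041), which is 2.65-fold on the FPKM + 1 scale. For MZ against WT the change was -0.52, with a 95% interval of -1.05 to 0.01 (limma adjusted p = 0.78). The direct difference, MG against MZ, was -0.88 ± 0.24 (SE, limma adjusted p = 0.097), so a difference between the knockouts did not pass. That difference was -0.48 with equal FPKM sums.

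The sign of the Stard5 change for MG held in all 19 alternatives, with log2 changes of -1.55 to -1.04. The call did not: it was lost in 15 of 19, including each of the 9 fits that left out a library, and the adjusted p ranged from 0.028 to 0.15. In the authors' deposited table Stard5 has a q-value of 0.0019 for WT and MG, 0.27 for WT and MZ and 0.025 for MG and MZ.

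**Figure D4:**
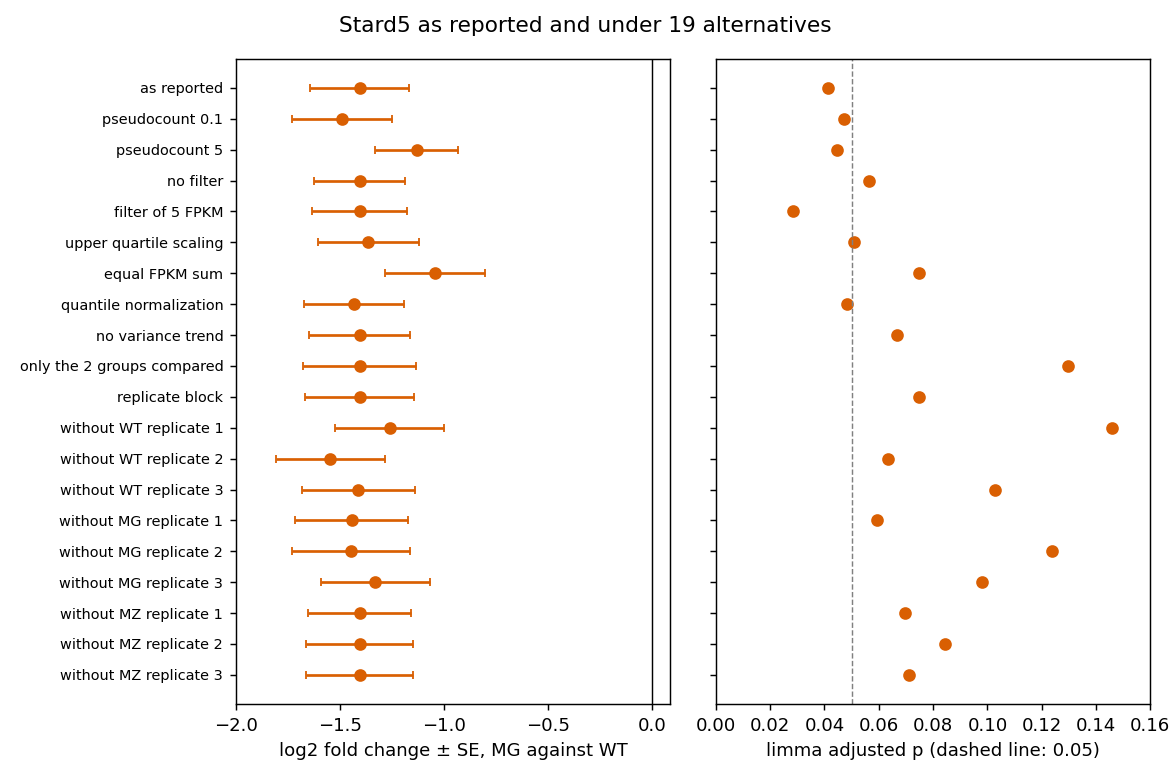
Stard5 in MG against WT as reported and under 19 alternatives, with the log2 fold change and its SE at the left and the limma adjusted p at the right. All log2 changes lie between -1.55 and -1.04, while 4 of the 19 alternatives fall under the dashed line at 0.05.

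Stard4, the sterol carrier most like Stard5 in this list, was lower and showed no such order. It had 5.38, 2.95 and 2.29 FPKM in WT, 1.55, 3.00 and 5.22 in MG, with 2.34, 4.99 and 6.81 in MZ, with all groups overlapping. Soat1, which esterifies cholesterol for storage, had means of 7.59 ± 1.34 FPKM in WT, 13.3 ± 5.08 in MG and 6.55 ± 0.53 in MZ (SD, n = 3 each), and its MG values of 8.35, 12.9 and 18.5 were above every MZ value. Lpin1, a phosphatidate phosphatase and known mTOR substrate, had 0.69, 1.91 and 0.79 FPKM in WT, 2.41, 2.48 and 3.61 in MG, with 0.40, 1.55 and 1.28 in MZ. Its MG values stood above the other 6, on about 29 fragments.

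**Figure D5:**
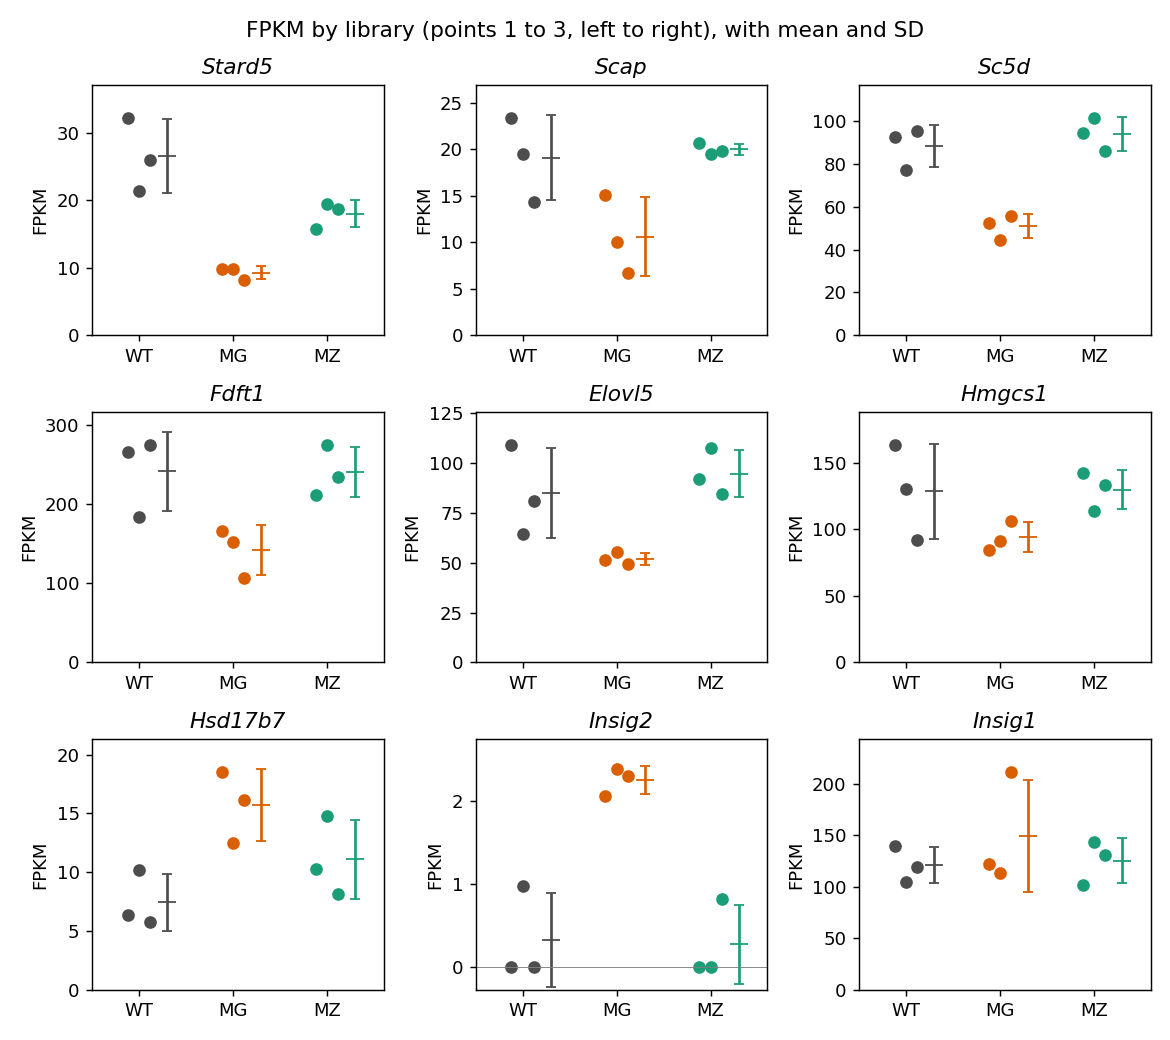
FPKM of 9 named genes by library (points 1 to 3 from left to right in each group), with the group mean and SD beside them. Stard5, Sc5d, Fdft1 and Elovl5 are lower in all 3 MG libraries than in any other, Insig2 is higher in all 3, and Insig1 is high in MG 3 alone. The level filter fixed the separation of Insig2 in advance.

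Under equal FPKM sums, where the median of all tested genes was 0.36, the log2 changes relative to that median in MG against WT were -1.40 for Stard5, -0.76 for Sc5d, -0.74 for Fdft1, -0.83 for Scap, -0.64 for Elovl5 and 1.01 for Hsd17b7. Relative to the median of 0.04 as reported they were -1.45, -0.83, -0.81, -0.87, -0.71 and 0.96. Equal sums rescale whole libraries and move all genes nearly alike. Quantile normalization can move them unequally, and with it, relative to a median of 0.01, they were -1.44, -0.61, -0.44, -0.89, -0.48 and 0.93, so Fdft1 and Elovl5 changed places.

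Other genes around the pathway were read from 6 lists with 106 tested genes in all. By limma, 0 of them passed in MZ against WT and 0 in MG against MZ.

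For the list of SREBP processing and sterol sensing, 9 of 15 tested genes had log2 changes above 0 in MG against WT. The counts were 10 of 16 for isoprenoid branches, 12 of 20 for sterol uptake, transport and esters, and 9 of 18 for other fatty acid synthesis. They were 10 of 15 for glycerolipids and lipid droplets and 14 of 22 for fatty acid oxidation, beside 53.0% of all tested genes. In MZ against WT the same 6 counts were 5, 10, 8, 9, 7 and 11, beside 51.1% of all tested genes.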

How the data were processed

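Per the labels' protocols, oocyte RNA was amplified by Smart-seq2 and made into libraries with a NEBNext kit, and read pairs of 150 bp were sequenced. Per the submitters' processing notes, reads were aligned to mm10 with TopHat2 2.0.13 and FPKM were computed with Cufflinks 2.2.1. The authors deposited FPKM per gene and library, and the p-value and q-value of Cuffdiff for each pair of groups. On strand, nothing is given in the sources used here. The members and lists were chosen with earlier results of these data known.

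Of 24255 rows, 27 with a date for a symbol were left out. Gene lengths came from GENCODE M21 (GRCm38), with 23002 rows matched (94.9%). Fragments behind a value were estimated from the low FPKM steps of 2224 genes that have a single transcript over 1500 bp, using the longest annotated transcript, so they are approximate. Of the 39 members, 10 share a locus with another row.

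A gene was kept when 3 or more of the 9 libraries reached 1 FPKM. Values were fitted as log2(FPKM + 1) with limma 3.58.1 in R 4.3.3, using a variance trend and every library together, which leaves 6 residual degrees of freedom. Tests were two-sided with Benjamini-Hochberg adjustment. Fold changes on this scale understate the change of low genes. The fit was tested on simulated data with known changes.

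Values in every library are given for members with an adjusted p under 0.05 or an unadjusted p under 0.01 in any comparison, the 6 with the highest mean, and the 5 control genes. Values by library for Acacb, Stard4, Soat1 and Lpin1 lie outside this rule and were chosen after they were seen. Of the other lists, some of the genes with the smallest p in a list and comparison are named. Other pseudocounts (0.1 and 5), filters, scalings and variance models were tried, as were fits of only 2 groups, fits with the replicate number as a block, and fits without 1 library. A result for 1 gene of the other lists is not reported here.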

Additional observations from a re-analysis of the deposited data

How the results depend on the processing

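Of the members, 1 passed in MG against WT as reported, and also with a pseudocount of 0.1 or 5, a filter of 5 FPKM, or quantile normalization. The count was 0 with no filter, upper quartile scaling, equal FPKM sums, no variance trend, only the 2 groups compared, the replicate block, and without any 1 library (range 0 to 0). In MG against MZ it was 0 to 2 without 1 library, and in MZ against WT 0 throughout. The count of all genes, 37 for MG against WT, was 17 with no filter, 66 with equal FPKM sums, 21 with quantile normalization, 5 with only the 2 groups and 3 to 24 without 1 library. For MZ against WT, 4 as reported, it was 2 with a pseudocount of 0.1 and with no filter, 0 with a filter of 5 FPKM, 1 with equal sums and with quantile normalization, 7 with no variance trend and 0 to 6 without 1 library. For MG against MZ, 14 as reported, it was 6 and 30 with pseudocounts of 0.1 and 5, 9 with no filter and with no variance trend, 31 with equal sums, 73 with only the 2 groups and 0 to 214 without 1 library. The cause of these shifts was not tested.

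With the replicate number as a block, all genes passing were 13 for MG against WT, 0 for MZ against WT and 159 for MG against MZ. Same-numbered libraries did not deviate together (correlations of -0.070 to 0.073 over 9 pairs), so the numbers were not taken as pairs.

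The members' median for MG against WT ran from -0.41 with a filter of 5 FPKM to 0.42 with equal FPKM sums. The filter of 5 FPKM kept 18 members, so the lower value covers fewer genes. Signs turned for values near 0. With equal FPKM sums, Srebf1 was 0.0087 in MG against WT and Fdft1 -0.038 in MZ against WT, and Elovl1 in MZ against WT was 0.012 with upper quartile scaling and 0.033 with quantile normalization. Insig1 in MG was highest with equal FPKM sums (0.64 against WT and against MZ). Without 1 library, Insig1 ran from -0.0275 to 0.42 in MG against WT and from -0.071 to 0.37 in MG against MZ, lowest without MG 3 in both. In MZ against WT the same ranges were -0.20 to 0.19 for Elovl1, -0.18 to 0.11 for Fdft1, -0.17 to 0.24 for Hmgcs1, -0.062 to 0.19 for Insig1, -0.33 to 0.29 for Insig2, -0.0037 to 0.15 for Sc5d and -0.092 to 0.24 for Scap. None of these values passed.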

Other observations

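Outside the 39 genes, the gene with the smallest p in MG against WT had a higher mean in MG in 5 of the 6 lists. Hacd3, a dehydratase of fatty acid elongation, had 8.14, 8.92 and 10.1 FPKM in WT, 29.1, 25.8 and 20.1 in MG, with 6.86, 12.6 and 12.3 in MZ. All MG values were above the rest, and the log2 changes of 1.36 against WT and 1.19 against MZ had limma adjusted p of 0.074 and 0.082. Osbpl8, a lipid transfer protein of the oxysterol-binding family, had 22.2 ± 6.52 FPKM in WT, 44.6 ± 8.81 in MG and 24.8 ± 1.69 in MZ (SD, n = 3 each; limma adjusted p = 0.10 for MG against WT). Osbp, the founding member of that family, had 2.53 ± 1.41, 7.70 ± 1.49 and 2.25 ± 0.59 FPKM in the same order (limma adjusted p = 0.11 for MG against MZ). As reported none of the 3 passed. With equal FPKM sums Hacd3 passed in MG against WT (log2 change 1.73, limma adjusted p = 0.036).

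In MZ against WT, Hilpda, a lipid droplet protein, had 26.9 ± 7.18 FPKM in WT and 11.7 ± 4.79 in MZ (SD, n = 3 each; limma adjusted p = 0.63). Cpt2, a carnitine acyltransferase of mitochondrial fatty acid entry, had 76.3 ± 10.2 and 55.3 ± 4.54 FPKM (limma adjusted p = 0.75). Npc2, a lysosomal cholesterol carrier, had 36.2 ± 4.65 and 23.0 ± 8.28 (limma adjusted p = 0.74). These did not pass either.

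Dgat1, which makes triacylglycerol, was listed at 0 throughout WT. In MG it had 2.84 and 3.28 FPKM in replicates 1 and 2 and was listed at 0 in replicate 3 (limma adjusted p = 0.28). Hsd17b4, a peroxisomal enzyme of fatty acid oxidation, had 3.01 ± 1.35 FPKM in WT and 6.84 ± 1.59 in MG (SD, n = 3 each; limma adjusted p = 0.25). Rabggtb, a subunit of a geranylgeranyl transferase, had 2.01 ± 0.13 FPKM in WT, 6.63 ± 1.72 in MG and 6.57 ± 5.03 in MZ (SD, n = 3 each), with a limma adjusted p of 0.19 and 0.77 against WT.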
